A study of Mus musculus with 6 samples.

Results

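Ephrins and their Eph receptors were followed in forebrain RNA of mice after water avoidance stress (WAS), through 10 genes chosen by symbol, namely the ephrin ligands Efna1, Efna2, Efna3, Efna5, Efnb1, Efnb2 and Efnb3 and the receptors Epha4, Epha5 and Epha7. These were 10 of the 23282 entries of the count tables, and each symbol was found there. The genes had been proposed with earlier results of these libraries in view, so their values are given as a description and without a test. The family as a textbook lists it holds 22 genes in the mouse, and the 12 that were not chosen were examined beside the 10.

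The libraries came from adult male C57BL/6J mice, with 1 library per mouse, 3 labelled as WAS and 3 labelled as control. A stressed mouse stood for 1 h on a small platform in a basin of water, and a control mouse stood on the same platform without water. The sources name no transgene and no drug for either group, and 1 hemisphere of the forebrain was used, without olfactory bulb and cerebellum. Counts came from QuantSeq 3′ mRNA-Seq, which reads the ends of polyadenylated transcripts, and totals ran from 9248520 to 10502029 per library. Levels are given as CPM, the usual unit that scales counts to the library's total, and since they were not divided by transcript length they were compared only within a gene. Inside the deposited tables the count column was headed WC in the libraries labelled WAS and WS in those labelled control. The headings are not explained in the sources. The groups follow the labels here, and with the labels exchanged all directions given would be the opposite.

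Eph receptors form the largest family of receptor tyrosine kinases, and their ligands, the ephrins, are themselves bound to the cell surface, so that signalling needs contact between cells. Ephrin-A ligands are held by a lipid anchor and mainly bind EphA receptors, whereas ephrin-B ligands cross the membrane and mainly bind EphB receptors, and EphA4 accepts both. Signals run into the receptor-bearing cell and also back into the ligand-bearing cell. In the developing brain the pairs guide axons and set borders and topographic maps, and in the adult forebrain they act at dendritic spines, synapses and the contacts between neurons and astrocytes.

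The libraries differed in the levels of markers of brain regions. Summed over 8 striatal markers, the level was 162 CPM in WAS replicate 1 and 375 CPM in WAS replicate 3, but 1953 CPM in WAS replicate 2 and 977 to 1330 CPM in the control libraries. The 6 thalamic markers summed to 680 and 580 CPM in WAS replicates 1 and 3, against 290 CPM in WAS replicate 2 and 276 to 291 CPM in the controls. Markers of cortex summed to 500 to 536 CPM in the WAS libraries and 527 to 649 CPM in the controls, and 0 of the 6 were higher on average in WAS. Neuronal markers lay between 5291 and 5796 CPM against 5803 and 6498 CPM, so that the sums did not overlap, although 2 of the 5 were higher on average in WAS. Oligodendrocyte markers overlapped (5185 to 7188 CPM in WAS, 5417 to 6394 CPM in control), as did endothelial markers (113 to 125 CPM in WAS, 106 to 131 CPM in control), and choroid plexus markers were low in WAS replicate 1 (52.9 CPM) and control replicate 2 (16.6 CPM) against 928 to 1242 CPM in the other libraries. All markers of these lists had counts in at least 1 library, but Drd2 had only 1 count in all. In whole tissue, fewer cells of a type and less RNA per cell cannot be told apart.

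**Figure D1:**
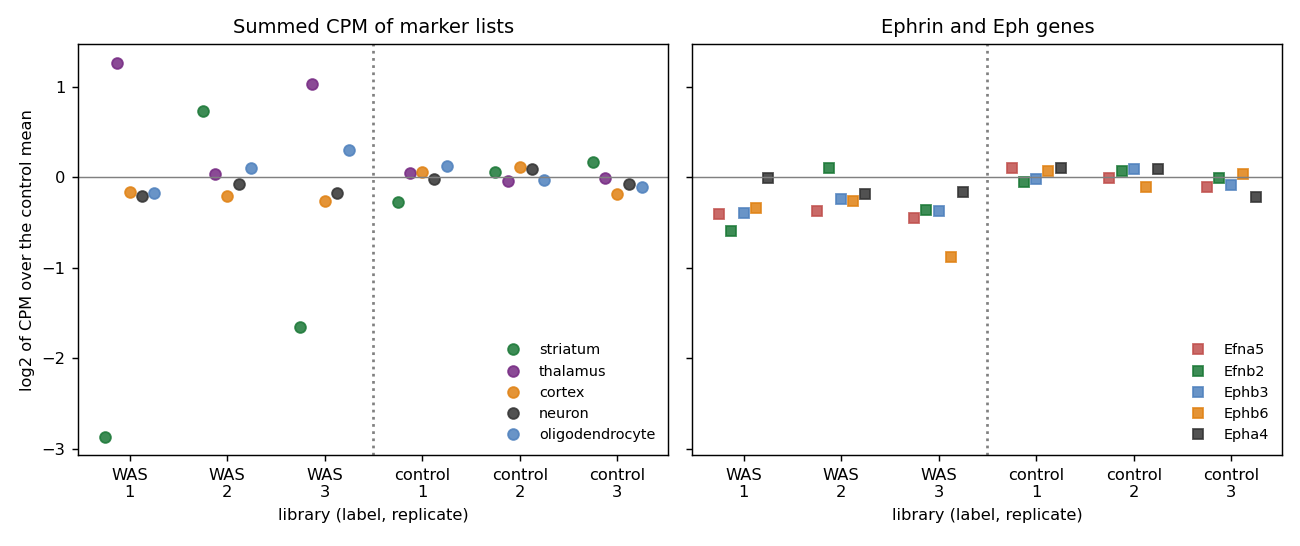
Left, summed CPM of 5 marker lists and right, CPM of 5 ephrin and Eph genes in each library, both as log2 of the ratio to the mean of the 3 control libraries; each point is 1 library. The striatal list is far below the controls in WAS replicates 1 and 3 and above them in WAS replicate 2, while Efna5, Ephb3 and Ephb6 lie below every control in all 3 WAS libraries and Efnb2 is below the controls only in WAS replicates 1 and 3.

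Of the 10 genes, 9 passed the filter on low values and entered the fit across 15239 genes, and Efna3 did not. By the criteria of the study, a fold change of at least 1.5 with an unadjusted p under 0.05, 0 of the 9 were called, where 2.49% of all genes tested were called (1.82% higher and 0.676% lower in WAS). WAS and control were fully separated for 1 of the 9 genes, Efna5, against 12.2% of all genes tested, with WAS above control for 8.42% and below it for 3.76%. As the genes were picked on this same contrast, nothing is read from these counts. The log2 ratio, the fitted log2 fold change of WAS over control, was below 0 for 6 of the 9 genes and for 49.8% of all genes, with a median of -0.029 for the 9 and 0.00088 for all. The median of the 9 was 0.0074 on library totals without TMM, a scaling that moved the median of all genes to 0.038. With WAS replicates 1 and 3 left out, the median of the 9 was 0.048 and that of all genes -0.0043, so its sign was not firm. Over the 15239 genes, edgeR's quasi-likelihood fit gave 0.477 as the smallest p after Benjamini-Hochberg adjustment, and 0 genes passed 0.05, while 1104 had an unadjusted p under 0.05 and DESeq2 gave 22 genes with an adjusted p under 0.05.

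**Figure D2:**
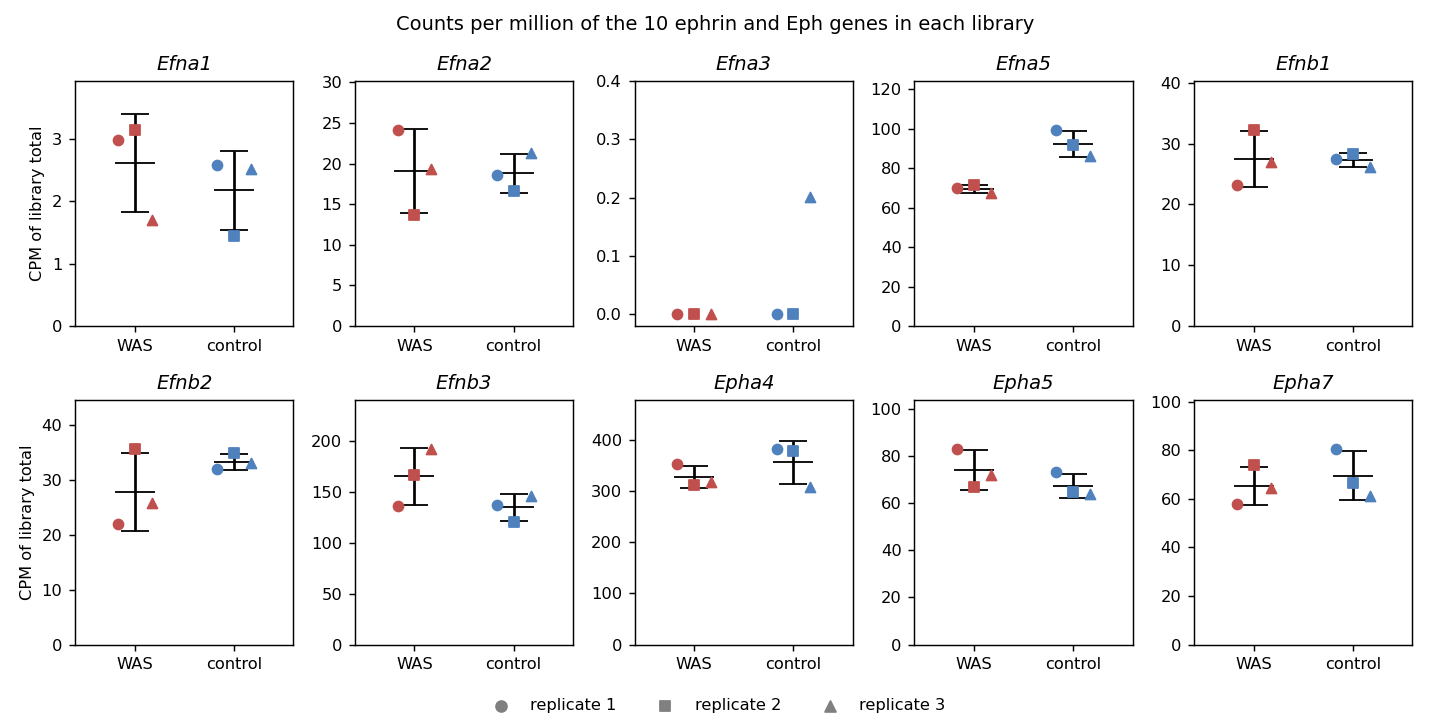
CPM of each of the 10 genes by group, with 1 point per library, the replicate number as the shape, and the mean and SD of 3 libraries in black (none for Efna3, which had counts in 1 library only). Efna5 is the gene whose groups do not overlap, at 67.6 to 71.6 CPM in WAS against 86.0 to 99.3 CPM in control.

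Among the ephrin-A ligands, Efna5 showed the clearest separation. Its product repels growing axons in retinotopic and thalamocortical mapping. Efna5 had 702, 662 and 675 counts in WAS replicates 1, 2 and 3 and 1043, 953 and 858 counts in control replicates 1, 2 and 3. Each WAS library lay below each control library, and the WAS libraries lay close together, at 69.6 ± 1.99 CPM (SD, n = 3) against 92.4 ± 6.68 CPM (SD, n = 3). For Efna5 the log2 ratio was -0.44 (standard error, SE, 0.087), or 1.36-fold lower in WAS, short of a fold change of 1.5. With each library left out in turn it stayed between -0.48 and -0.40, and with WAS replicates 1 and 3 both left out it was -0.41. Efna5 was at 71.6 CPM in WAS replicate 2, the library richest in striatal markers, at 69.7 CPM in WAS replicate 1, the one poorest in them, and at 67.6 CPM in WAS replicate 3. The cortical and neuronal sums were lower on average in the WAS libraries too, and the part of the striatal, cortical or neuronal makeup in this value was not tested.

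Efna2 encodes an ephrin-A that acts with ephrin-A5 in topographic mapping. It had 243, 127 and 193 counts in the WAS libraries and 195, 172 and 213 counts in the control libraries. WAS replicate 1 was the highest of all libraries and WAS replicate 2 the lowest, so the groups overlapped fully, at 19.1 ± 5.21 CPM (SD, n = 3) and 18.8 ± 2.40 CPM (SD, n = 3). Its log2 ratio was -0.017 (SE 0.20). Dropping WAS replicate 2 turned the sign (0.17), and so did dropping control replicate 3 (0.092). Library totals without TMM gave 0.021, but that scaling moved the median of all genes to 0.038, so it is not counted as a turn of Efna2. Within the WAS group, Efna2 was low where the striatal sum was high and the other way round (24.1, 13.7 and 19.3 CPM in replicates 1, 2 and 3). That order did not hold in control replicates 1, 2 and 3, with striatal sums of 977, 1231 and 1330 CPM and Efna2 at 18.6, 16.6 and 21.3 CPM. The part of the regional makeup was not tested.

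Efna1, the family's founding ligand, known from endothelium, was found at low counts. It had 30, 29 and 17 counts in the WAS libraries and 27, 15 and 25 in the control libraries, with a log2 ratio of 0.22 (SE 0.39). The exact 95% Poisson interval of the lowest count, 15, ran from 8.40 to 24.7 counts and that of the highest, 30, from 20.2 to 42.8 counts, and these intervals overlap. These intervals cover counting error only, since the reads carry no molecular identifiers. Without control replicate 2 the log2 ratio was 0.00050, without WAS replicate 3 it was 0.45, and with WAS replicate 1 and control replicate 2 left out together it was -0.12. Efna3 had 0 counts in 5 libraries and 2 counts in control replicate 3. By a fixed floor, a bound of another kind than the intervals above, a count of 0 was taken to allow up to 3 counts, or 0.286 to 0.324 CPM in these libraries, so both groups were at or under the floor and no fold change is given.

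The ephrin-B ligands did not all lie on 1 side of the controls. Efnb2, a marker of arterial endothelium that neurons and astrocytes also express, had 221, 330 and 258 counts in the WAS libraries against 336, 361 and 329 in the controls. WAS replicates 1 and 3 lay below every control library, but WAS replicate 2, at 35.7 CPM, lay above all of them (32.0 to 34.8 CPM). The groups were at 27.8 ± 7.08 CPM (SD, n = 3) and 33.2 ± 1.41 CPM (SD, n = 3), with a log2 ratio of -0.30 (SE 0.16). Leaving out WAS replicate 2 gave -0.51 and leaving out WAS replicate 1 gave -0.15, and with WAS replicates 1 and 3 left out together it was 0.062. The libraries below the controls were those with a low striatal sum, and the endothelial sums overlapped between groups. The part of either in this value was not tested.

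Efnb3 encodes the ephrin-B ligand of the midline and of corticospinal axon guidance. It had 1372, 1541 and 1922 counts in the WAS libraries against 1442, 1251 and 1457 in the controls. WAS replicates 2 and 3 lay above every control library and WAS replicate 1 fell within the control range, at 165 ± 28.1 CPM (SD, n = 3) against 135 ± 13.0 CPM (SD, n = 3). The log2 ratio of Efnb3 was 0.26 (SE 0.12) and ran from 0.13 without WAS replicate 3 to 0.38 without WAS replicate 1. The summed oligodendrocyte markers had the same order in the WAS libraries (5185, 6256 and 7188 CPM in replicates 1, 2 and 3) but not in the controls (6394, 5734 and 5417 CPM, with Efnb3 at 137, 121 and 146 CPM), and their part was not tested. Efnb1, which is X-linked and is best known from craniofacial and cortical development, had 233, 298 and 270 counts against 288, 294 and 261. Its groups overlapped, at 27.5 ± 4.55 CPM (SD, n = 3) and 27.3 ± 1.09 CPM (SD, n = 3). For Efnb1 the log2 ratio was -0.029 (SE 0.14), which turned to 0.078 without WAS replicate 1. It was also above 0, at 0.20 without WAS replicates 1 and 3 and 0.10 without WAS replicate 1 and control replicate 2. On library totals without TMM it was 0.0074, but that scaling moved the median of all genes to 0.038.

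The 3 receptors among the 10 genes overlapped between groups. Epha4, which binds both ephrin classes and acts on dendritic spines and on neuron to astrocyte contacts, had 3553, 2890 and 3165 counts in the WAS libraries and 4023, 3927 and 3065 counts in the controls. Control replicates 1 and 2 were the highest, but control replicate 3, at 307 CPM, was the lowest of all libraries. The groups were at 327 ± 22.2 CPM (SD, n = 3) and 356 ± 42.5 CPM (SD, n = 3), and the log2 ratio of -0.16 (SE 0.098) kept within -0.25 to -0.11 when any 1 library was left out.

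Epha5, a receptor of hippocampal and striatal wiring, had 837, 618 and 720 counts against 767, 673 and 635. WAS replicate 1 stood highest and the other libraries lay between 63.6 and 73.0 CPM. The log2 ratio was 0.10 (SE 0.10), and it was 0.010 without WAS replicate 1, -0.047 with WAS replicates 1 and 3 left out and -0.016 with WAS replicate 1 and control replicate 2 left out. Epha7, a receptor that limits dendrite growth and sorts cortical and thalamic axons, had 584, 682 and 641 counts against 847, 692 and 608. Control replicate 1 was the highest and WAS replicate 1 the lowest library. Its log2 ratio was -0.12 (SE 0.12), and it was -0.013 without control replicate 1. With WAS replicates 1 and 3 left out it was 0.048.

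**Figure D3:**
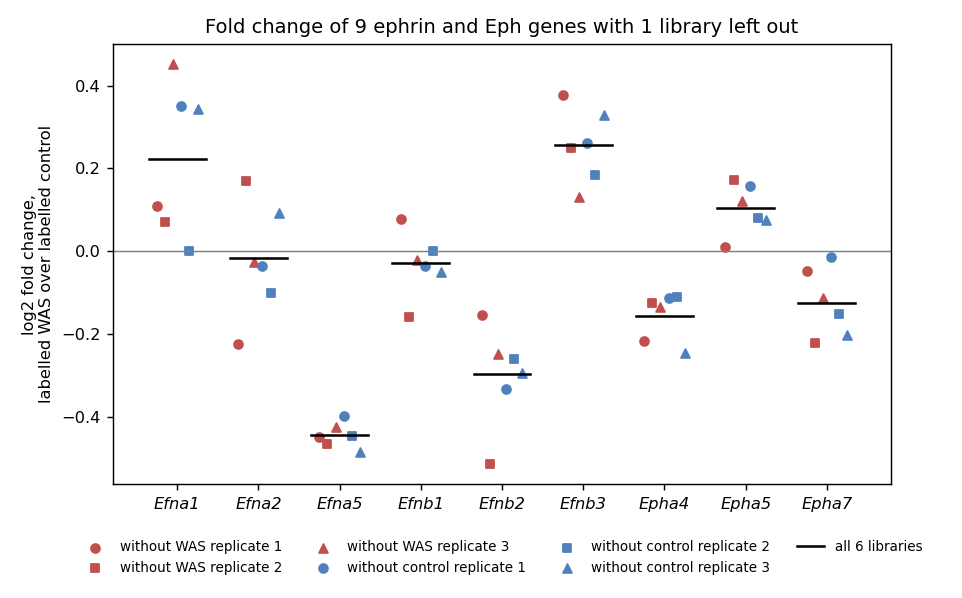
log2 ratio of WAS over control of the 9 genes tested, with all 6 libraries (black line) and with each library left out (points; red for a WAS library left out, blue for a control library). Efna5 stays between -0.48 and -0.40, Efnb2 spreads from -0.51 to -0.15, and Efna2 and Efnb1 lie on both sides of 0.

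Of the 12 family genes that were not chosen, 11 were tested, and they were examined with edgeR's quasi-likelihood test over all genes. Because the choice of the 10 was made with the results known, the remaining 12 are not an unselected group either. Here 0 of 11 met the study's criteria and 0 passed an adjusted p of 0.05. At an unadjusted p under 0.05, 2 were lower and 0 higher in the WAS libraries, where 3.4% of all genes were lower and 3.85% higher. These 2 were EphB receptors, Ephb3 and Ephb6, and the groups did not overlap for either, as for 12.2% of all genes tested (3.76% with WAS lower).

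Ephb6, a receptor whose kinase is inactive, had 682, 662 and 465 counts in the WAS libraries and 946, 827 and 875 counts in the controls. All WAS libraries lay below all controls, with WAS replicate 3 far below the other WAS libraries, at 62.0 ± 13.5 CPM (SD, n = 3) against 85.8 ± 5.45 CPM (SD, n = 3). The log2 ratio of Ephb6 was -0.51 (SE 0.14), and its adjusted p from edgeR was 0.514. Without WAS replicate 3 the log2 ratio was -0.34. The adjusted p of Ephb6 over the alternatives was lowest without WAS replicate 2 (0.0226) and highest without control replicate 2 (0.9998). The fit without WAS replicate 2 keeps WAS replicates 1 and 3, the libraries low in striatal markers, and 484 genes passed an adjusted p of 0.05 in it. Ephb3, a receptor of commissural axons and of spine formation, had 246, 253 and 249 counts against 335, 356 and 304, with no overlap. It was at 25.6 ± 1.56 CPM (SD, n = 3) against 32.2 ± 1.93 CPM (SD, n = 3), a log2 ratio of -0.37 (SE 0.11, edgeR adjusted p 0.539). Leaving out any 1 library gave -0.42 to -0.32, and its adjusted p was lowest without WAS replicate 2 (0.119) and highest without control replicate 2 (0.9998). With WAS replicates 1 and 3 left out together, the log2 ratios were -0.30 for Ephb6 and -0.28 for Ephb3, and the unadjusted p of Ephb3 was then 0.104 by edgeR. It was 0.0645 by edgeR with WAS replicate 1 and control replicate 2 left out.

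The remaining EphB receptors overlapped between groups. Ephb2, a receptor at excitatory synapses that binds NMDA receptors, had 254, 128 and 204 counts in the WAS libraries against 212, 160 and 193, with a log2 ratio of 0.081 (SE 0.20, edgeR adjusted p 0.968). Within the WAS group it was highest in replicate 1 and lowest in replicate 2, as Efna2 was, and with WAS replicates 1 and 3 left out its log2 ratio was -0.44. Ephb1, a receptor of crossing decisions at the optic chiasm, had 853, 716 and 705 counts against 842, 736 and 686 and a log2 ratio of 0.046 (SE 0.099, edgeR adjusted p 0.964). Ephb4, the venous partner of ephrin-B2, had only 10 to 18 counts per library.

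Among the EphA receptors not chosen, Epha10, whose kinase is inactive like that of EphB6, was the one with more than 50 counts in every library, at 364, 281 and 328 against 342, 314 and 253. Its log2 ratio was 0.14 (SE 0.12, edgeR adjusted p 0.892), but 0.049 without control replicate 3, 0.067 without WAS replicate 1 and 0.21 without control replicate 1. Epha3, Epha6 and Epha8 had between 12 and 46 counts per library, and their log2 ratios were 0.29, -0.20 and 0.23 with standard errors of 0.41, 0.41 and 0.40. Efna4 and Epha1 had at most 9 and 12 counts in a library, and 0 in WAS replicate 2, and Epha2, with at most 5, was not tested. For these genes no difference passed an adjusted p of 0.05 by edgeR. The annotated ends of Epha1, Epha6, Ephb1 and Ephb4 overlap a gene on the other strand, and the setting used for strand in counting is not given, so their counts are uncertain. On GRCm38, GENCODE M21 places the ephrin-A genes Efna1 (chr3:89271733-89281142) and Efna3 (chr3:89313899-89322965) on the minus strand, Efna2 at chr10:80179482-80190010 on the plus strand, Efnb1 at chrX:99136130-99148991 on the plus strand, Efnb2 at chr8:8617434-8661242 and Efnb3 at chr11:69554092-69560205, both on the minus strand. The receptors lie at chr1:77367185-77515088 (Epha4, minus strand), chr5:84054761-84417382 (Epha5, minus strand) and chr4:28813131-28967499 (Epha7, plus strand). None of the ends of the 10 chosen genes overlapped another annotated gene or held a stretch of 50 bases found in a transcript of another gene.

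**Figure D4:**
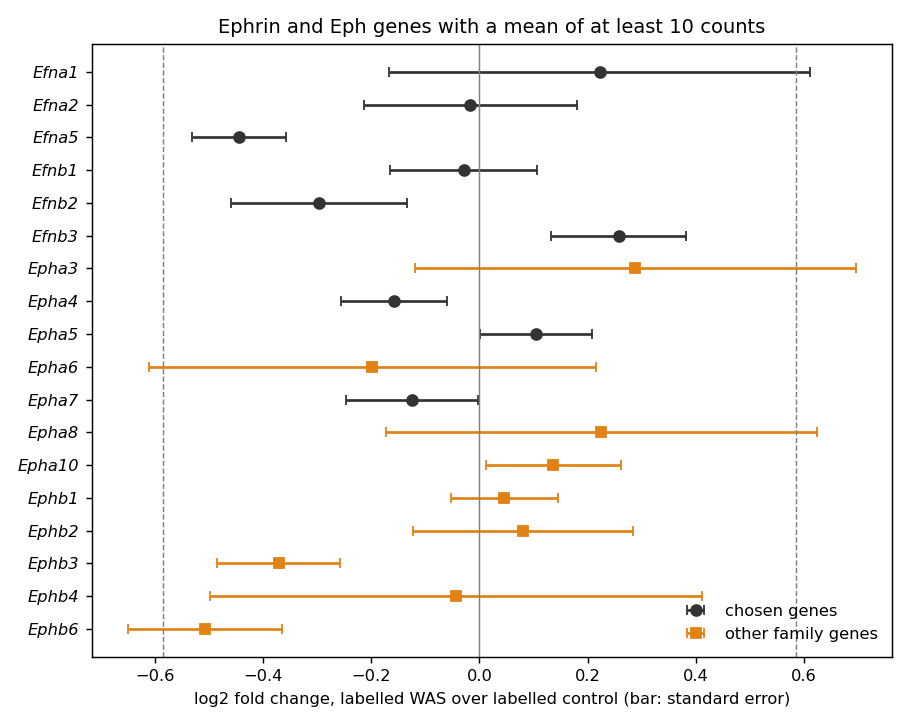
log2 ratio of WAS over control with its standard error for the 18 tested family genes with a mean of at least 10 counts, with dark circles for the 9 chosen genes that were tested and orange squares for the others; dashed lines mark a fold change of 1.5. Efna5, Ephb3 and Ephb6 lie left of 0, from -0.51 to -0.37, and no gene passes the dashed lines.

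Over the family as a whole, 20 of the 22 genes were tested, 12 had a log2 ratio below 0 and 8 above, and the median was -0.036. The 3 genes whose groups did not overlap, Efna5, Ephb3 and Ephb6, were all lower in WAS, where 12.2% of all genes tested did not overlap and 3.76% did so with WAS lower. The family median was 0.0011 on library totals without TMM, a scaling that moved the median of all genes to 0.038. Its direction was not firm, since it was 0.0039 without WAS replicate 2, where the median of all genes was -0.0035. By class, the summed level of the ephrin-A ligands was 97.6, 88.4 and 88.8 CPM in the WAS libraries and 121, 111 and 110 CPM in the controls, so that the groups did not overlap, and most of the counts in this sum were assigned to Efna5. The ephrin-B sum overlapped, at 181 to 245 CPM against 184 to 205 CPM. The EphA sum, at 492 to 541 CPM against 464 to 578 CPM, overlapped too. The EphB sum was at 164 to 203 CPM against 202 to 223 CPM, with WAS replicate 1 just above control replicate 2.

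**Figure D5:**
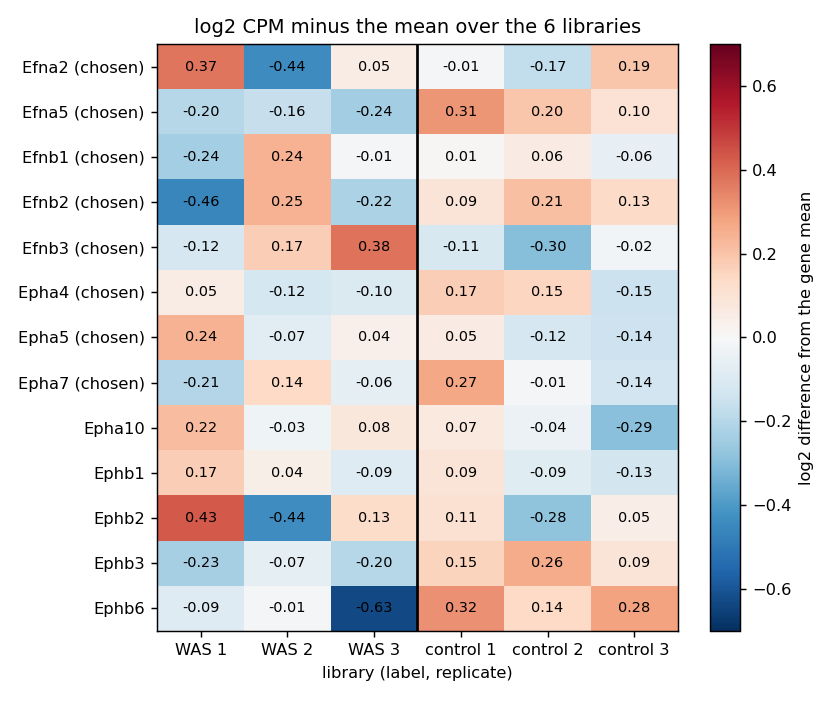
log2 CPM minus the gene's mean over the 6 libraries for the 13 family genes with a mean of at least 50 counts, red above and blue below the mean, with the 3 WAS libraries left of the black line and the genes of the 10 named as chosen. The rows of Efna5, Ephb3 and Ephb6 are below the mean in all WAS libraries and above it in all control libraries, whereas Efna2, Efnb2 and Ephb2 differ most between WAS replicates 1 and 2.

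The sequence upstream of these 3 genes is shown because they were the family members with no overlap between the groups and were lower in the same libraries. The windows run from 250 to 51 bases before the start that RefSeq gives on GRCm38.p6, the assembly that mm10, the build named in the submitters' processing notes, corresponds to, and each is written 5′ to 3′ on the strand of its gene. Efna5 lies at chr17:62604184-62881317 on the minus strand, Ephb3 at chr16:21204755-21223305 on the plus strand and Ephb6 at chr6:41605482-41620509 on the plus strand by GENCODE M21. The windows are chr17:62881368-62881567, chr16:21204545-21204744 and chr6:41605261-41605460, and capitals mark the GC box GGGCGG or its reverse complement.
Efna5: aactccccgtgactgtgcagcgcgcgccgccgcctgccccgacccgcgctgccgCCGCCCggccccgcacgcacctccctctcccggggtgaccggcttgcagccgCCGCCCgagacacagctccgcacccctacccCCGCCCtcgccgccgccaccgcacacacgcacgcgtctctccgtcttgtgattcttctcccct
Ephb3: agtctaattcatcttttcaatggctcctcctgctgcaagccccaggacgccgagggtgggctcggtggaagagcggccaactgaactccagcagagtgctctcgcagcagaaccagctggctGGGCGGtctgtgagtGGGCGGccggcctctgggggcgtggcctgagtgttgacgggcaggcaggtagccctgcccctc
Ephb6: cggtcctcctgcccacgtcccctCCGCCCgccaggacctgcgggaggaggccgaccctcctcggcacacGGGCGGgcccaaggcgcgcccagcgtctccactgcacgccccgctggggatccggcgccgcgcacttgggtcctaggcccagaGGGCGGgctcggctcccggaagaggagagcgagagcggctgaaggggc

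The windows had a GC content of 75.5% for Efna5, 65.0% for Ephb3 and 76.5% for Ephb6, against a median of 51.5% over all promoter windows. Windows of the family ran from 48.0% (Epha1) to 83.5% (Epha8), with Efna2 at 73.5% and Efnb2 at 72.0%. The 3 windows held 3, 2 and 3 matches to the GC box. It was found on either strand in 24.6% of 32841 windows of the same length and in 17 of 24 windows of 21 family genes. No match was found in the 3 windows to the TATA box TATAAA (9.14% of all windows), the CCAAT box CCAAT (28.4%), the cAMP response element TGACGTCA (0.828%), the AP-1 site TGANTCA (5.58%) or the E-box CACGTG (4.34%), each searched on both strands. The GC box was thus found in most windows of the family and is not particular to the 3 genes.

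Downstream of Eph receptors, 44 genes of signalling were examined, of which 43 were tested. By edgeR's test, 5 were lower and 2 were higher in WAS at an unadjusted p under 0.05, 0 met the study's criteria and 0 passed an adjusted p of 0.05. On library totals without TMM, a scaling that moved the median of all genes to 0.038, 1 was lower (Kalrn) and 2 were higher (Tiam1 and Limk1). The balance was not firm, since limma on quantile-normalized counts gave Ngef and Chn1 as lower and Tiam1 and Limk1 as higher at that threshold. The groups did not overlap for 7 of the 43, with WAS above control for 6 and below it for 1, beside 8.42% and 3.76% of all genes. At the unadjusted threshold, 7 in 43 stand beside 7.24% of all genes. The median log2 ratio of the 43 genes was 0.0080, with 22 above and 21 below 0.

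The exchange factors and GTPase regulators that Eph receptors use held 4 of the 7. Ngef, or ephexin, which couples EphA4 to RhoA, had 1177, 2385 and 1264 counts in the WAS libraries against 2465, 2599 and 2212 in the controls. WAS replicates 1 and 3 were far below the controls (117 and 127 CPM against 222 to 250 CPM) and WAS replicate 2, at 258 CPM, was above all of them, and the log2 ratio of Ngef was -0.53 (SE 0.24, edgeR adjusted p 0.683). Without WAS replicate 2 it was -0.99 with an adjusted p of 3.775e-05 by edgeR, whereas with DESeq2 or on library totals its unadjusted p was over 0.05. Ngef was low in the same libraries as the striatal markers and Efnb2, and the part of the regional makeup was not tested. Kalrn, an exchange factor for Rac at spines, had a log2 ratio of -0.30 (SE 0.11), and Sipa1l1, a Rap regulator of spines, of -0.29 (SE 0.12). Sipa1l1 was at 373 and 392 CPM in WAS replicates 1 and 3. It was at 531 CPM in WAS replicate 2, within the control range of 494 to 544 CPM. Without that library its log2 ratio was -0.46 with an adjusted p of 0.00753 by edgeR, in a fit where 484 genes passed 0.05. Tiam1, which activates Rac downstream of EphB receptors and ephrins, was higher, with 979, 931 and 1000 counts against 833, 846 and 792 and no overlap. Its log2 ratio was 0.27 (SE 0.080, edgeR adjusted p 0.539), and its unadjusted p was under 0.05 in each alternative run. Of the 7 genes, Tiam1 was the 1 left at that threshold without WAS replicate 3.

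Of the kinases, Rock2, an effector of RhoA, and Ptk2, the focal adhesion kinase, were lower, with log2 ratios of -0.21 (SE 0.086) and -0.22 (SE 0.098). Limk1, which phosphorylates cofilin, was higher, at 59.8 ± 4.83 CPM (SD, n = 3) against 49.5 ± 1.83 CPM (SD, n = 3), with a log2 ratio of 0.24 (SE 0.096, edgeR adjusted p 0.650). The genes of the list with the highest counts, which are not levels per length, were Chn1, which encodes the Rac regulator α-chimaerin that acts with EphA4, Anks1b, a scaffold, and Rock2. Chn1 was at 828 ± 159 CPM (SD, n = 3) in WAS against 970 ± 61.8 CPM (SD, n = 3) in control and its log2 ratio was -0.27 (SE 0.12, edgeR adjusted p 0.686), while Anks1b was at -0.087 (SE 0.087, edgeR adjusted p 0.901). In WAS replicate 2 Chn1 lay within the control range, at 1002 CPM against 902 to 1023 CPM. Without that library its log2 ratio was -0.43 with an adjusted p of 0.0153 by edgeR, in the fit where 484 genes passed 0.05. None of the 11 adaptors, 6 small GTPases and actin regulators, or 5 proteases and phosphatases had an unadjusted p under 0.05 in the fit of all 6 libraries. Among the alternatives, 2 adaptors, named after their values were seen, had one. Nck2, at -0.30 (SE 0.15, edgeR adjusted p 0.711), passed that unadjusted threshold without WAS replicate 1, without control replicate 2 and in both fits without a pair of libraries, where its log2 ratio ran from -0.51 to -0.39 and its adjusted p by edgeR from 0.728 to 0.9998. Inppl1, at -0.10 (SE 0.15, edgeR adjusted p 0.943), passed it without WAS replicate 2, with a log2 ratio of -0.29 and an edgeR adjusted p of 0.344.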

How the data were processed

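RNA-seq counts of 3 WAS and 3 control forebrains were analysed. The deposited read counts were made by the authors with Bowtie2 and Bedtools, reads with several alignments included; the build named in the submitters' processing notes is mm10, and versions and annotation are not given in the sources used here. The authors' quantile normalization is not in these counts. Counts were fitted in R 4.3.3 with edgeR 4.0.16 (TMM scaling, quasi-likelihood F test) over 15239 genes with a mean log2(quantile-normalized count + 1) of at least 2, without a replicate term, and p-values were adjusted by Benjamini and Hochberg. Standard errors are the size of the log2 fold change over the root of F. Printed CPM use library totals. The scripts were tested on simulated data. Genes and lists were chosen with earlier results of these data known, and Drd1a was matched to Drd1 through a synonym. The p-values measure the spread between libraries of 1 mouse each, in which mice and the tissue taken cannot be told apart. Promoter sequences are RefSeq's (21 of the 22 family genes matched), and gene positions are GENCODE M21's. The genes named are the 10, the rest of the family, and of the 44 signalling genes the 3 with the highest CPM and those with an unadjusted p under 0.05. Alternatives were library totals, DESeq2 1.42.0, limma 3.58.1 on quantile-normalized values, other filters, the replicate number as a block and libraries left out.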

Additional observations from a re-analysis of the deposited data

How the results depend on the processing

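The number of genes that met the study's criteria by the tests used here was 380 (277 higher, 103 lower in WAS) in the main fit. It was 352 with limma on quantile-normalized counts (201 higher, 151 lower) and 168 with a mean count of at least 50. With 1 library left out it was 261 to 831, the highest without WAS replicate 2. The study, which does not name its test, reported a shorter list with more genes lower than higher. The number with an adjusted p under 0.05 was 22 with DESeq2, 49 with the replicate block and 0 to 484 with 1 library left out, again highest without WAS replicate 2. Same-numbered libraries had deviations from their group means that correlated at 0.066, 0.085 and 0.087, all under 0.1, so the numbers were not taken to pair them, though each WAS library correlated best with its own number. The family's median log2 fold change ran from -0.090 to 0.0039 with 1 library left out. Of the signalling genes, 7 had an unadjusted p under 0.05, 3 on library totals, 4 with limma, and 1 to 10 with 1 library left out, and the replicate block gave 9, Nck2 among them. Both fits that leave out a pair of libraries were chosen after seeing the data. The libraries poor in striatal markers left out together (WAS replicates 1 and 3, which leaves 1 WAS library, assumed to vary like the controls) gave 1 gene at an adjusted p under 0.05 and 2 signalling genes, and turned, besides Efnb1, Efnb2, Epha5 and Epha7 given above, the log2 fold changes of Epha3 (-0.043) and Ephb2 (-0.44). Leaving out WAS replicate 1 and control replicate 2, poor in choroid plexus markers, gave 3 signalling genes and turned, besides Efna1, Efnb1 and Epha5 given above, Epha8 (-0.031), Ephb1 (-0.049), Ephb2 (-0.24) and Ephb4 (0.086). With 1 library left out, the log2 fold change ran from -2.14 to 0.16 for Efna4, 0.090 (without WAS replicate 1) to 0.53 (without control replicate 1) for Epha3, -0.65 to 0.0065 for Epha6, -0.058 to 0.55 for Epha8, -0.024 to 0.11 for Ephb1, -0.13 to 0.28 for Ephb2 and -0.36 to 0.14 for Ephb4. The cause of these moves was not tested. With WAS replicates 1 and 3 left out, no fold change is given for Efna4 and Epha1, as the remaining WAS library holds 0 counts of each and the fitted values depend on the prior count. The same omission gave -0.49 for Efna2. Fold changes of Efna1, Efna4, Epha1, Epha3, Epha6, Epha8 and Ephb4 rest on few counts and have standard errors of 0.39 to 0.94.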

Other observations

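Among the 9 tested of the 10 genes, Efna1 had the widest range of log2 CPM over the 6 libraries, 1.03. The 5 genes nearest to its pattern, of 11168 with a mean of at least 50 counts, were Zfp777, Sbsn, Alyref2, Cdk20 and Lmf1, with root mean square differences of 0.125 to 0.164 in centred log2 CPM over 6 libraries. They were picked for this likeness, and the pattern of Efna1 rests on 15 to 30 counts per library, within which counting error alone is wide.

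The hypothalamic list summed to 48.1 CPM in control replicate 3 against 2.29 and 2.02 CPM in control replicates 1 and 2, and this was carried by 1 gene, Oxt, which was at 44.6 CPM in control replicate 3 against 0.571 and 0.289 CPM. In the WAS libraries the list summed to 5.61 to 17.4 CPM. Midbrain markers summed to 68.3 and 42.4 CPM in WAS replicates 3 and 1 against 11.5 to 15.1 CPM in the other libraries. Hippocampal markers were at 121 to 208 CPM in WAS and 83.5 to 139 CPM in control, and astrocyte markers at 1497 to 1708 CPM in WAS and 1358 to 1514 CPM in control, so both overlapped. Microglial markers overlapped too (254 to 307 CPM in WAS, 266 to 309 CPM in control), as did cerebellar and hindbrain markers (28.5 to 39.0 CPM in WAS, 21.3 to 32.1 CPM in control), of which Hoxa5 was at 0 in every library.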
